A study of Mus musculus with 18 samples.

Results

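The retinas of NACET-treated Akita mice were compared with those of untreated wild-type (WT) mice, to see which transcripts still differed from the healthy retina after treatment. The libraries were chosen by their sample titles, 5 of Akita + NACET and 3 of WT, which is 8 of the 18 libraries of the series. All mice were male. WT animals were C57BL/6J and drank water alone. Akita animals (C57BL/6-Ins2Akita/J) carry a germline missense change in 1 allele of the insulin gene Ins2, which damages the insulin-producing cells of the pancreas and makes the mice diabetic. NACET, N-acetylcysteine in the form of its ethyl ester, an antioxidant, was dissolved in the drinking water at 0.33 mg/mL. This gave 50 mg/kg per day by mouth from week 4 to week 24 of age. Retinas of all groups were taken at week 24 of age. Genotype and treatment both differed between these 2 groups, so the part of each in a difference cannot be told apart here. The 4 libraries of Akita mice on water and the 6 of WT mice on NACET entered the same fit to estimate the spread. Their levels are given for the genes that edgeR or DESeq2 called on all 4 groups, for Hbb-b2 as the sum of the globin genes. The labels do not say that each library came from a separate animal, and p-values measure the spread between libraries, which may be partly technical.

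The retina holds rods and cones, which detect light, bipolar, horizontal and amacrine cells, which process their signals, and ganglion cells, whose axons form the optic nerve. Mueller glia span all its layers, recycle glutamate and move water and potassium. Diabetic retinopathy harms both the small vessels and the neurons, and oxidative stress is held to be part of it. Thiol compounds such as NACET feed the synthesis of glutathione, and the transcription factor NRF2, encoded by Nfe2l2, turns on antioxidant genes once it is released from its sensor KEAP1.

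The 8 libraries held 11495596 to 16715421 counts in genes. The groups overlapped in this depth (two-sided exact permutation p = 0.429). They also overlapped in the share of reads outside annotated exons, 16.4% ± 2.11 (SD, n = 5) in Akita + NACET and 16.3% ± 1.24 (SD, n = 3) in WT (two-sided exact permutation p = 1). The rod genes were all tested, and rhodopsin alone took 59593 to 86065 CPM (counts scaled to library size) in the 8 libraries. Some libraries stood apart in RNA of neighbouring tissues. WT replicate 2 had a summed level of 20 pigment epithelium genes of 1511 CPM, against 465 and 532 CPM in the other WT libraries and 410 to 1251 CPM in Akita + NACET. Akita + NACET replicates 3 and 5 had summed levels of 1557 and 451 CPM over 17 lens genes, against 50.2 to 98.7 CPM in the other 6 libraries. Results that rest on 1 of these libraries are given with and without it.

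In the treated diabetic retina, 1 of 16183 tested genes differed from WT at an adjusted p of at most 0.05 in edgeR's quasi-likelihood test with Benjamini-Hochberg adjustment (0.00618%). That gene was Csrp3, which fell. The same fit called 1237 genes in Akita mice on water against the same WT libraries (7.64%). The Akita libraries on water had 9.67% to 13.3% of reads outside exons, below the 14.9% to 17.1% of WT. The part of this difference in that count was not tested. At an unadjusted p under 0.05, 750 genes (4.63%) separated Akita + NACET from WT, 357 higher (2.21%) and 393 lower (2.43%). Libraries of the groups did not overlap for 324 genes that were higher in Akita + NACET (2.0%) and for 351 that were lower (2.17%). DESeq2 on the same 4 groups called 11 genes of 18981 with an adjusted p (0.0580%), 8 higher and 3 lower, and named Csrp3 among them. Fits on the 8 libraries alone called 3 genes of 15635 in edgeR (0.0192%) and 28 of 24795 in DESeq2 (0.113%).

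A missed threshold does not show that levels were alike, so the interval of each difference was computed too. For 13605 genes (84.1%) the 95% interval of the log2 fold change lay within -1 and 1, which bounds the difference at 2-fold. The median distance from the estimate to the end of the interval was 0.34 on the log2 scale. It was 0.99 for the 1673 genes with a mean under 1 CPM, 0.52 at 1 to 10 CPM, 0.26 at 10 to 100 CPM and 0.23 above 100 CPM. The median size of the estimated change was 0.11, and 273 genes had an estimate over 2-fold. Differences of 2-fold in genes under 1 CPM were mostly not detectable at this depth and number of libraries.

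**Figure D1:**
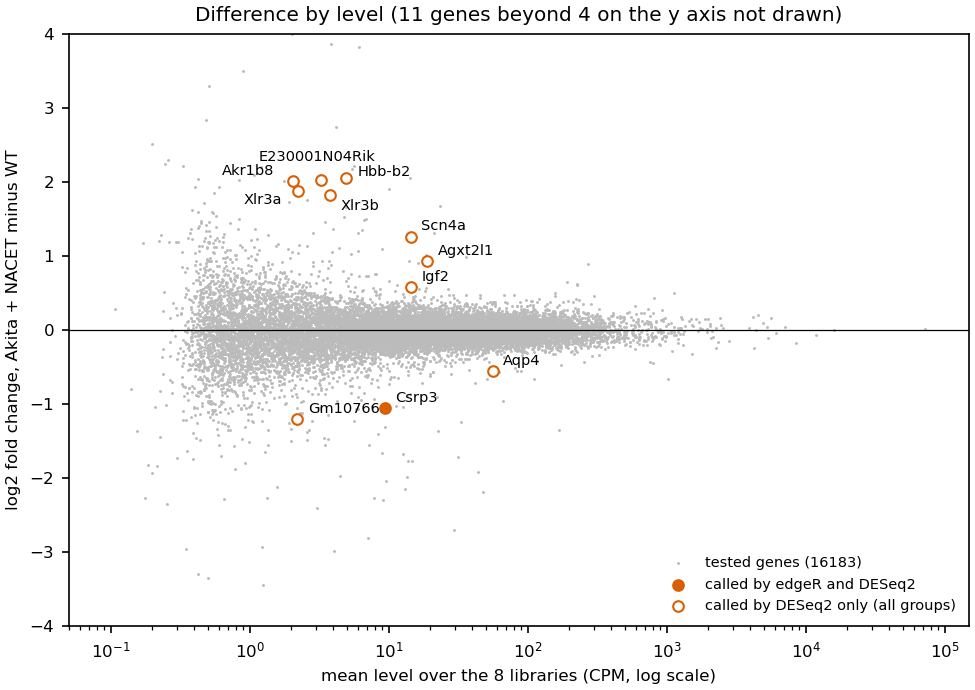
Each grey point is 1 of 16183 tested genes, with its mean level over the 8 libraries (CPM, log scale) on the x axis and the log2 fold change of Akita + NACET against WT on the y axis. Csrp3, the filled point, is the gene called by both edgeR and DESeq2. The 10 open points were called by DESeq2 only. The 11 genes beyond 4 are not drawn.

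Csrp3 encodes muscle LIM protein, a cysteine-rich protein with LIM domains known from the Z-discs of heart and skeletal muscle. It lies at chr7:56085768-56103400 on the minus strand (mm9), where no other annotated gene overlaps it. The level was 11.7, 14.6 and 15.4 CPM in the WT libraries, and 6.27, 7.07, 7.40, 6.65 and 5.94 CPM in the Akita + NACET libraries. Every treated diabetic library was below every WT library, and the 5 lay within a narrow band. The difference on the log2 scale was -1.06 ± 0.15 (SE), with a 95% interval of -1.36 to -0.75 and an adjusted p of 0.00758 in edgeR. The counts behind it were 91 to 120 reads in Akita + NACET and 163 to 255 in WT. Akita mice on water had 8.35 to 12.6 CPM, and WT mice on NACET had 4.87 to 6.75 CPM. Against the same WT libraries, Csrp3 in Akita stood at -0.45 ± 0.15 (SE) on the log2 scale, with an adjusted p of 0.0704 in edgeR. The call rested on the WT libraries: without WT replicate 2 the change was -1.02 (adjusted p = 0.0790), and without WT replicate 3 it was -0.97 (adjusted p = 0.169). The call was also lost in edgeR with the replicate number as a block, at -1.05 (adjusted p = 0.0738).

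Sums of other muscle genes overlapped between the groups. The 9 other tested genes of a 28-gene list of skeletal and heart muscle summed to 22.9 to 29.3 CPM in WT and 22.3 to 26.1 CPM in Akita + NACET. Of the 10 tested members, Csrp3 included, 4 were bounded within 2-fold, against 84.1% of all tested genes. For 18 listed genes, among them Ckm, Mb and the myosin heavy chains Myh1, Myh2 and Myh4, counts were too low for the test. The paralogs of Csrp3 were not called: Csrp1, found in smooth muscle, differed by 0.03 ± 0.23 (SE) and Csrp2 by -0.32 ± 0.33 (SE) on the log2 scale.

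The 250 bases before the annotated start of Csrp3 are shown because it is the called gene (RefSeq, GRCm38.p6, chr7:48848052-48848301, minus strand). The table used holds 2 annotated starts of Csrp3, and this is the upstream one. Capitals mark the run TATATA, which begins 13 bases before the start. The other promoter, at chr7:48843672-48843921, does not hold it.
Csrp3 promoter: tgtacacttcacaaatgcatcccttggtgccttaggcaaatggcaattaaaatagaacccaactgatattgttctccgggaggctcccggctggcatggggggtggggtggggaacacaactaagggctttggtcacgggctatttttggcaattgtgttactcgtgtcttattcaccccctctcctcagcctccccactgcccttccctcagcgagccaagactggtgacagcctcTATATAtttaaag
The run TATATA, which reads the same on both strands, stood in 5.25% of 32851 mouse promoters of this length, and in the promoters of 1 of 8 genes among the 11 that DESeq2 called. The core of the antioxidant response element, TGACNNNGC on either strand, the sequence that NRF2 is known to bind, stood in 10.2% of all promoters and in 0 of those 8 genes. Promoters of the other 3 genes were not in the table used.

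Akr1b8 came next to Csrp3 in the edgeR test. It encodes an aldo-keto reductase of the family of aldose reductase, which reduces aldehydes with NADPH, and lies at chr6:34304119-34318463 on the plus strand (mm9). WT libraries had 0.287, 1.04 and 0.783 CPM, and Akita + NACET libraries had 2.41, 3.30, 3.32, 3.29 and 1.89 CPM. The lowest treated diabetic library was above the highest WT library. The log2 fold change of 2.01 ± 0.34 (SE) had an adjusted p of 0.0687 in edgeR and 0.000271 in DESeq2. The counts were low, 4 to 13 reads in WT and 29 to 56 in Akita + NACET. The level was 1.62 to 2.45 CPM in Akita mice on water and 0.795 to 1.72 CPM in WT mice on NACET. A second annotated gene lies on the opposite strand there, and the counting ignored strand. Aldose reductase itself, Akr1b3, which turns glucose into sorbitol in the polyol pathway, had a log2 fold change of 0.14 ± 0.23 (SE).

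Agxt2l1, also called Etnppl, encodes a phospholyase that breaks down phosphoethanolamine and is known as an astrocyte gene. The gene lies at chr3:130320366-130338668, plus strand. It had 11.3, 13.7 and 11.4 CPM in WT and 24.7, 24.1, 24.0, 18.4 and 24.0 CPM in Akita + NACET. All treated diabetic libraries were higher, and the log2 fold change was 0.93 ± 0.21 (SE, adjusted p = 0.436 in edgeR, 0.0224 in DESeq2). Akita mice on water ranged from 9.20 to 23.7 CPM and overlapped both groups, and WT mice on NACET had 14.7 to 20.3 CPM. With the 8 libraries alone edgeR called this gene too (adjusted p = 0.0324).

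E230001N04Rik, an uncharacterised transcript at chr17:28660238-28662292, was the other gene that edgeR called on the 8 libraries alone (adjusted p = 0.0324). It had 1.08, 1.20 and 1.08 CPM in WT and 6.27, 5.25, 4.34, 3.92 and 3.07 CPM in Akita + NACET. Among Akita mice on water, 1 library had 4.02 CPM and the other 3 had 0.982 to 1.10 CPM. WT mice on NACET had 0.477 to 2.46 CPM. In the fit of all groups the log2 fold change was 2.02 ± 0.50 (SE, adjusted p = 0.570 in edgeR, 0.0496 in DESeq2).

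Xlr3a and Xlr3b are near-identical members of a lymphocyte-regulated gene family on the X chromosome, and Xlr3b is known to be imprinted. They lie at chrX:70331632-70342434 and chrX:70437546-70448269. Xlr3b had 0.431, 1.84 and 2.11 CPM in WT and 6.20, 4.66, 7.08, 3.36 and 4.70 CPM in Akita + NACET, and Xlr3a had 0.719 to 0.963 CPM and 1.99 to 4.70 CPM. Neither overlapped between the groups. WT mice on NACET had 5.50 to 9.39 CPM of Xlr3b and 2.33 to 5.99 CPM of Xlr3a. Akita mice on water had 2.03 to 3.30 CPM of Xlr3b, below every Akita + NACET library, and 0.746 to 3.33 CPM of Xlr3a, which overlapped both groups. The log2 fold changes were 1.82 ± 0.34 (SE) for Xlr3b and 1.87 ± 0.42 (SE) for Xlr3a, with adjusted p of 0.161 and 0.436 in edgeR and 0.000162 and 0.0224 in DESeq2.

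Reads that aligned to several places were not counted, so only bases that differ between such copies carry a paralog's counts. The coding sequences of Xlr3a and Xlr3b differ at 12 of 681 bases. Those of the alpha globins Hba-a1 and Hba-a2 differ at 1 of 429 bases and those of the beta globins Hbb-b1 and Hbb-b2 at 1 of 444, so their values are uncertain as to which copy they belong to. The windows of 60 coding bases below show the differing bases in capitals (mm9 transcripts). Positions 449 to 508 are shown for Xlr3, 351 to 410 for the alpha globins and 385 to 444 for the beta globins.
Xlr3a: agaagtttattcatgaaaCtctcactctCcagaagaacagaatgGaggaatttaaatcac
Xlr3b: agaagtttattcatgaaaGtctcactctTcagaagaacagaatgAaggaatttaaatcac
Hba-a1: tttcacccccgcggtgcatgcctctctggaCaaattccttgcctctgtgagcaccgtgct
Hba-a2: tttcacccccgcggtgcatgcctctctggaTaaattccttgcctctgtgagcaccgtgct
Hbb-b1: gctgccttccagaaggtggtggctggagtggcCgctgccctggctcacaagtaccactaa
Hbb-b2: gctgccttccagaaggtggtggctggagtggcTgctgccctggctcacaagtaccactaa

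Scn4a encodes the voltage-gated sodium channel of skeletal muscle and lies at chr11:106179906-106214602. It had 6.61, 8.71 and 7.89 CPM in WT and 28.6, 16.97, 15.8, 18.2 and 13.1 CPM in Akita + NACET. Every treated diabetic library was above every WT library, with replicate 1 the highest. The log2 fold change was 1.26 ± 0.33 (SE, adjusted p = 0.707 in edgeR, 0.0476 in DESeq2). Levels were 9.86 to 39.9 CPM in Akita mice on water and 9.68 to 13.3 CPM in WT mice on NACET. Igf2, insulin-like growth factor 2, had 11.7, 11.99 and 9.88 CPM in WT and 20.9, 15.97, 15.95, 15.97 and 14.4 CPM in Akita + NACET, again without overlap. The estimate was 0.57 ± 0.12 on the log2 scale (SE, adjusted p = 0.436 in edgeR, 0.0224 in DESeq2). Akita mice on water were as high, with 17.4 to 20.5 CPM and a difference from WT of 0.74 ± 0.13 (SE, adjusted p = 0.0117 in edgeR), and WT mice on NACET had 9.65 to 10.8 CPM. Mir483 on the same strand and Igf2as on the opposite strand overlap Igf2.

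Aqp4 encodes aquaporin 4, the water channel of Mueller glia end-feet. It had 65.0, 84.1 and 60.9 CPM in WT and 43.9, 48.6, 42.8, 46.9 and 56.0 CPM in Akita + NACET. The groups did not overlap, and the log2 fold change was -0.55 ± 0.12 (SE, adjusted p = 0.436 in edgeR, 0.0476 in DESeq2). Gm10766, a short predicted gene at chr2:127095445-127095768, had 3.59, 3.44 and 3.25 CPM in WT and 1.03, 1.30, 1.79, 1.62 and 1.63 CPM in Akita + NACET. The estimate was -1.21 ± 0.24 on the log2 scale (SE, adjusted p = 0.178 in edgeR, 0.0224 in DESeq2). Akita mice on water had 41.4 to 54.5 CPM of Aqp4 and 0.879 to 1.33 CPM of Gm10766, and both ranges overlapped with those of the treated animals. WT mice on NACET had 46.6 to 66.4 CPM of Aqp4 and 1.07 to 2.04 CPM of Gm10766.

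**Figure D2:**
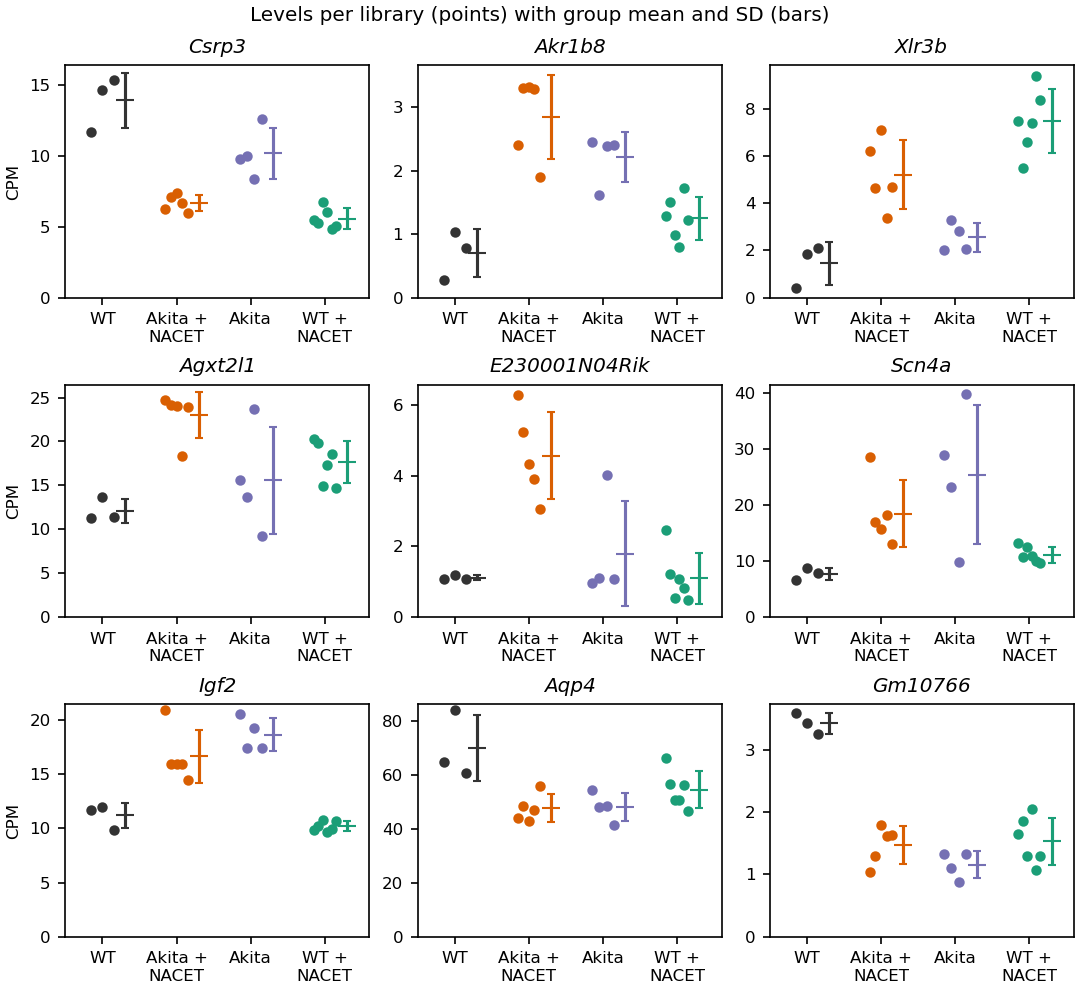
Points are libraries and bars are group means with SD, in CPM from 0, for WT (3), Akita + NACET (5), Akita (4) and WT + NACET (6). All 9 genes were called by DESeq2 on the 4 groups, and Csrp3 also by edgeR. WT and Akita + NACET libraries do not overlap in any panel, and Csrp3 ranges from 11.7 to 15.4 CPM in WT and from 5.94 to 7.40 CPM in Akita + NACET.

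Globin RNA was higher in the treated diabetic libraries, by estimates that edgeR did not call. Globins form haemoglobin in red blood cells. The 4 globin genes summed to 11.2, 26.5 and 14.6 CPM in WT and to 37.9, 91.5, 39.0, 93.2 and 32.5 CPM in Akita + NACET, without overlap. Of 8 tested red blood cell genes, 5 were higher at an unadjusted p under 0.05 (2.21% of all tested genes) and 4 were higher without overlap (2.0%). The median log2 fold change was 1.28, against -0.01 over all tested genes. Hbb-b2 differed by 2.05 ± 0.53 on the log2 scale (SE, adjusted p = 0.693 in edgeR, 0.0412 in DESeq2). Hba-a1, Hba-a2 and Hbb-b1 had changes of 1.90 ± 0.54, 1.65 ± 0.52 and 1.68 ± 0.50 (SE). DESeq2 on the 8 libraries called Hba-a2 (adjusted p = 0.0337). Akita mice on water had globin sums of 11.2 to 32.6 CPM and WT mice on NACET 17.9 to 54.4 CPM. The amount of blood in the dissected tissue was not measured, and its part in these values was not tested.

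Lens genes were high in single libraries. The 17 tested ones are 13 crystallins, the bulk proteins of the eye lens, some of which neurons also express under stress, and the lens membrane and filament genes Lim2, Mip, Bfsp1 and Bfsp2. Of the 17, 16 had a higher estimate, with a median log2 fold change of 3.82. At an unadjusted p under 0.05 in edgeR there were 0 (4.63% of all tested genes). DESeq2 on the 4 groups called 0, but gave a p for only 1 of the 17, and DESeq2 on the 8 libraries gave a p for all 17 and called 0. The median was 1.88 without Akita + NACET replicate 3 and 3.72 without Akita + NACET replicate 5. No fit left out both. Sums of the 17 genes reached 3507 CPM in an Akita library and 29919 CPM in a WT + NACET library.

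**Figure D3:**
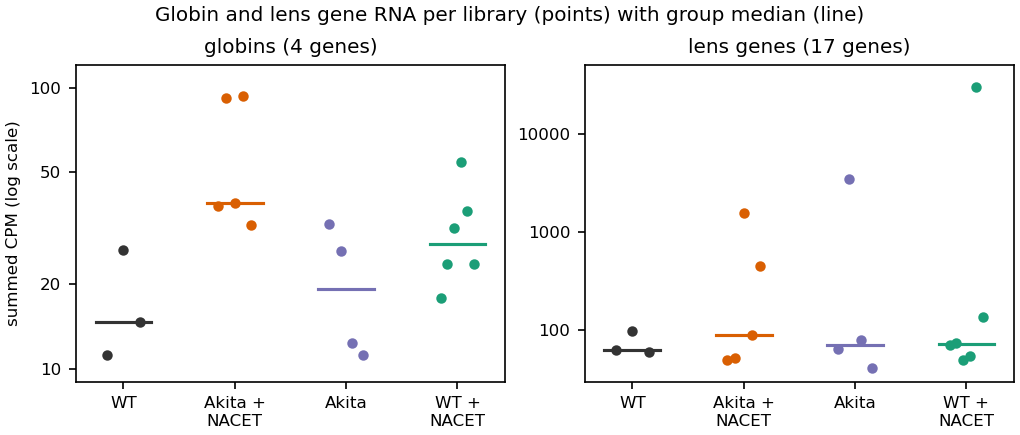
Points are libraries, and lines are group medians of the summed level (CPM, log scale) of 4 globins on the left and 17 lens genes on the right. Globin sums of the 5 Akita + NACET libraries, 32.5 to 93.2 CPM, lie above the WT range of 11.2 to 26.5 CPM. Lens gene sums are high in 1 or 2 libraries of 3 groups.

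Among photoreceptors, all 30 rod phototransduction and outer segment genes had an interval within 2-fold. So did 84.1% of all tested genes, 98.5% of those at 10 to 100 CPM and 99.4% of those above 100 CPM. At an unadjusted p under 0.05 in edgeR there were 0 of the 30 (4.63% of all tested genes), and DESeq2 called 0. Of 16 cone genes, 4 were lower and 1 higher at that level (2.43% and 2.21% of all tested genes), and 15 were bounded within 2-fold (84.1%). In bulk tissue, fewer cells of a type and less RNA per cell cannot be told apart. Opn1sw, the short-wavelength cone opsin, had 1128, 1384 and 1463 CPM in WT and 1118, 676, 862, 1021 and 505 CPM in Akita + NACET (log2 fold change -0.66 ± 0.27, SE). The groups did not overlap, with 1 treated diabetic library just under the lowest WT library. Gngt2, the gamma subunit of cone transducin, was at 102 to 110 CPM in WT and 63.4 to 98.1 CPM in Akita + NACET (-0.34 ± 0.11, SE). Pde6h, the inhibitory subunit of cone phosphodiesterase, differed by -0.35 ± 0.14 (SE) and overlapped. Opn1mw, the medium-wavelength cone opsin, was the higher one, at 168 to 257 CPM in WT and 232 to 316 CPM in Akita + NACET (0.35 ± 0.14, SE).

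Over all 16183 tested genes, 8625 had a lower estimate and 7558 a higher one, which stands beside the counts of lower genes in every list. Among inner retinal neurons, amacrine and ganglion cell genes had mostly lower estimates. Bipolar cell genes were lower for 13 of 20, and horizontal cell genes were evenly split. Of 19 tested amacrine genes 16 were lower, with a median of -0.22 that was -0.11 without WT replicate 1, and 2 were lower at an unadjusted p under 0.05 (2.43% of all tested genes). Slc17a8, the glutamate transporter VGLUT3 of a class of amacrine cells, had 4.67, 4.64 and 4.03 CPM in WT and 1.79, 2.36, 3.32, 1.99 and 3.40 CPM in Akita + NACET, without overlap (-0.79 ± 0.23, SE). Npy, a neuropeptide, had 16.98 to 23.8 CPM and 11.6 to 18.2 CPM (-0.58 ± 0.24, SE). Cartpt, a neuropeptide precursor of ganglion and amacrine cells that DESeq2 called on the 8 libraries, had 166, 132 and 135 CPM in WT and 82.6, 98.2, 99.4, 92.6 and 82.4 CPM in Akita + NACET (-0.67 ± 0.23, SE).

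Ganglion cell markers had lower estimates for 18 of 22 genes, with a median of -0.19. The median turned to 0.039 without WT replicate 1, and was -0.33 without WT replicate 2 and -0.087 without Akita + NACET replicate 5. Of the 22, 1 had an unadjusted p under 0.05, near the 4.63% of all tested genes. That gene was Spp1, osteopontin, which alpha ganglion cells and activated microglia express. It had 75.8, 67.3 and 56.8 CPM in WT and 44.3, 40.4, 50.4, 41.1 and 33.3 CPM in Akita + NACET, without overlap (-0.67 ± 0.29, SE). DESeq2 on the 8 libraries called Spp1 (adjusted p = 0.00414). Rbpms, the general ganglion cell marker, had 65.2, 44.2 and 45.0 CPM in WT and 68.5, 53.6, 63.8, 49.3 and 37.0 CPM in Akita + NACET. Its log2 fold change of 0.08 ± 0.21 (SE) had an interval of -0.36 to 0.52. Of 20 bipolar and 10 horizontal cell genes, 0 had an unadjusted p under 0.05 in edgeR (4.63% of all tested genes). DESeq2 called 0 of them. Their medians were -0.05 and 0.03, with 13 of the 20 and 5 of the 10 lower.

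Mueller glia genes were lower for 18 of 20 members, with a median of -0.15. The median turned to 0.018 without WT replicate 2 and was -0.26 without WT replicate 3. At an unadjusted p under 0.05, 2 were lower and 1 higher (2.43% and 2.21% of all tested genes). Beside Aqp4, Glul, the glutamine synthetase that clears glutamate, had 1002, 998 and 888 CPM in WT and 687, 670, 739, 658 and 786 CPM in Akita + NACET. The groups did not overlap (-0.44 ± 0.16, SE), and DESeq2 on the 8 libraries called it (adjusted p = 0.00241). Gfap, the intermediate filament that stressed Mueller glia switch on, had 78.6, 33.0 and 50.6 CPM in WT and 87.7, 63.2, 79.2, 50.5 and 25.9 CPM in Akita + NACET, and the groups overlapped (0.18 ± 0.42, SE). Of 20 tested gliosis and astrocyte genes only Lcn2, lipocalin 2, reached an unadjusted p under 0.05 (5%, against 4.63% of all tested genes). Lcn2 was at 3.02 to 5.36 CPM in WT and 5.42 to 9.25 CPM in Akita + NACET (0.73 ± 0.24, SE).

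Microglia and macrophage genes were lower for 17 of 21 members, with a median of -0.33. Leaving out WT replicate 2 brought the median to -0.0037, WT replicate 3 to -0.53 and Akita + NACET replicate 5 to -0.19. P2ry12, the purinergic receptor of resting microglia, had 8.47, 6.71 and 6.44 CPM in WT and 4.96, 4.24, 5.04, 4.66 and 5.29 CPM in Akita + NACET, without overlap (-0.57 ± 0.19, SE). It was the 1 member with an unadjusted p under 0.05, near the 4.63% of all tested genes. Of 22 inflammatory cytokine and adhesion genes 13 had too few reads for the test, Il1b, Il6, Tnf and Ccl2 among them. The other 9 had 0 at that level in edgeR (4.63% of all tested genes) and 0 called by DESeq2.

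DESeq2 called 0 of 20 tested vessel endothelium genes, and 0 of them had an unadjusted p under 0.05 in edgeR (4.63% of all tested genes). Of 12 tested pericyte and smooth muscle genes 2 were higher at that level (2.21% of all tested genes). Estimates of the list were split, 6 higher and 6 lower, with a median of 0.00055. Kcnj8, a potassium channel subunit that marks pericytes, had 0.241 to 0.400 CPM in WT and 0.511 to 1.24 CPM in Akita + NACET (1.11 ± 0.48, SE). Pigment epithelium genes followed the WT library that stood apart. Dct, a melanin synthesis enzyme, had 14.1, 249 and 16.9 CPM in WT and 11.8 to 27.6 CPM in Akita + NACET, and its log2 fold change of -2.19 turned to 0.39 without WT replicate 2. The median of the list moved from 0.06 to 0.93 without that library.

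**Figure D4:**
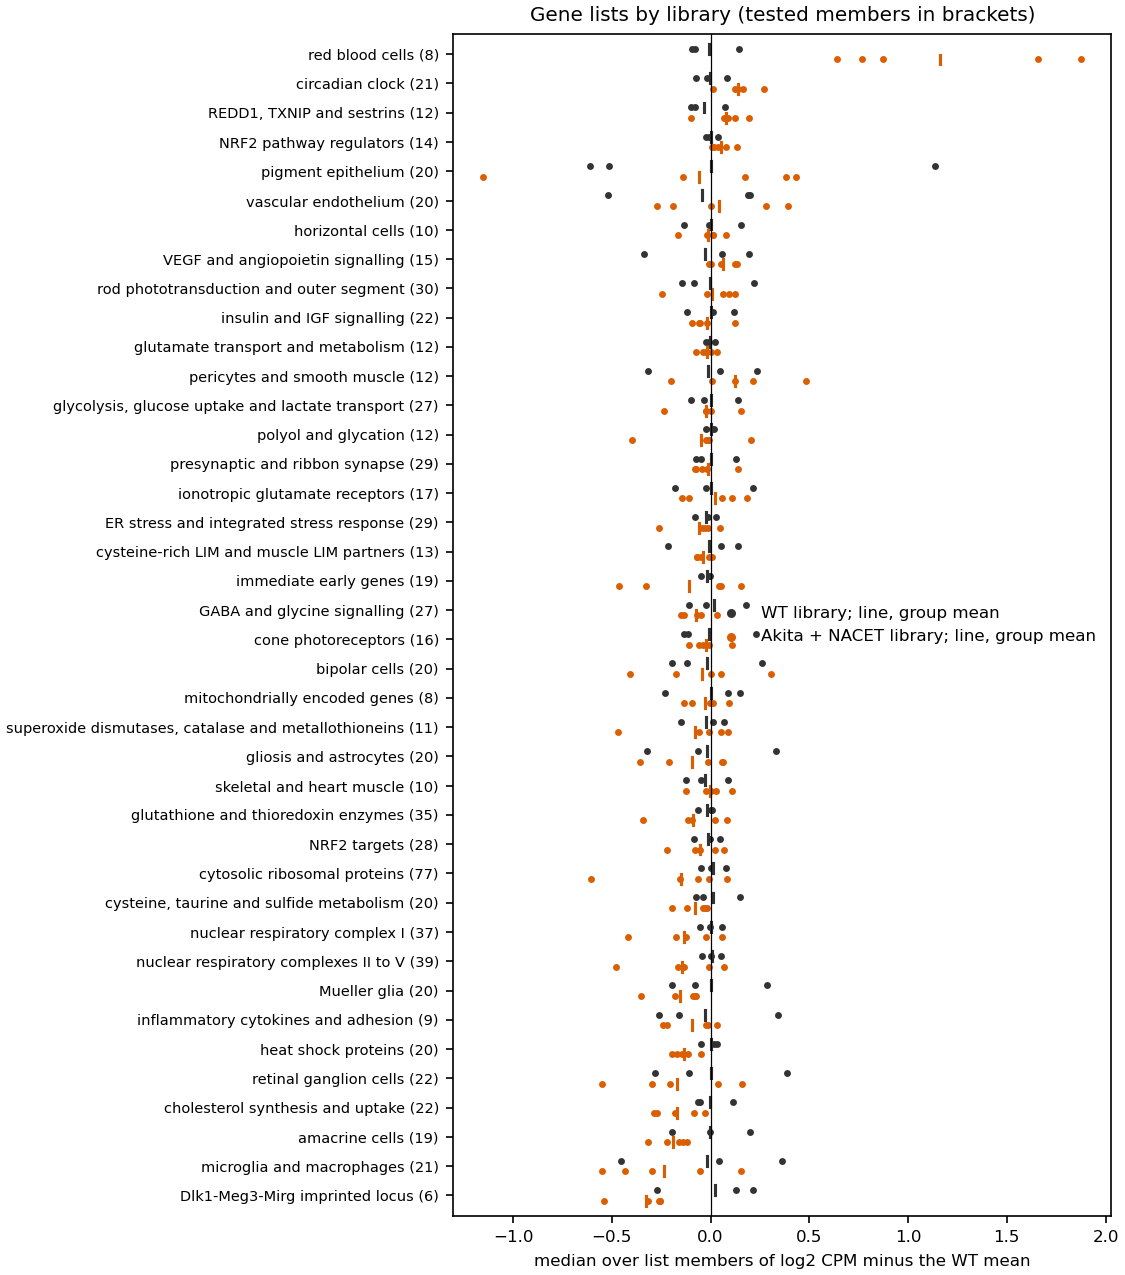
Each row is a gene list with its number of tested members in brackets. Points are the median over members of log2 CPM minus the WT mean in each library, and short lines are group means, for the 3 WT and 5 Akita + NACET libraries. Lens genes are left out for scale. The red blood cell list lies apart from WT in all 5 treated libraries, while most other lists overlap with WT.

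The study asked how NACET acts through NRF2 and glutathione, so genes of that system were examined as lists. Of 14 regulators of NRF2 and 28 tested NRF2 targets, 0 had an unadjusted p under 0.05 in edgeR (4.63% of all tested genes). DESeq2 called 0 of them. The medians were 0.07 and -0.10, and the second turned to 0.039 without WT replicate 2 and was -0.025 without Akita + NACET replicate 5. Nfe2l2 had 26.5, 27.02 and 24.99 CPM in WT and 35.7, 26.6, 27.4, 25.7 and 27.1 CPM in Akita + NACET, with 3 of the 5 treated libraries above the highest WT library (0.12 ± 0.11, SE). Keap1 differed by 0.09 ± 0.09 on the log2 scale (SE), with an interval of -0.09 to 0.28. Of the targets, the quinone reductase Nqo1 had 0.10 ± 0.25 (SE), and heme oxygenase Hmox1 had -0.38 ± 0.27 (SE). The subunits of glutamate-cysteine ligase, which catalyses the first step of glutathione synthesis, had 0.19 ± 0.16 (SE) for Gclc and -0.02 ± 0.12 (SE) for Gclm. Their intervals were -0.14 to 0.52 and -0.26 to 0.23, so a 2-fold difference was outside both.

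Of 35 tested glutathione and thioredoxin enzymes, 2 were lower at an unadjusted p under 0.05, a share of 5.71% that is near the 4.63% of all tested genes. Gpx4, the peroxidase that reduces lipid hydroperoxides, had 64.3, 54.4 and 70.8 CPM in WT and 51.2, 44.9, 53.7, 51.4 and 33.1 CPM in Akita + NACET, without overlap (-0.43 ± 0.13, SE). Chac1, which breaks down glutathione, had 12.3, 6.63 and 6.68 CPM and 3.72 to 5.11 CPM (-0.91 ± 0.40, SE). Of 11 genes listed as superoxide dismutases, catalase and metallothioneins, 8 were lower and 3 higher, with a median of -0.06. Of these, 1 was higher at an unadjusted p under 0.05 (9.09%, against 4.63% of all tested genes). Mt2, a metallothionein that binds zinc and copper, had the highest estimate of the list. It was at 4.70 to 9.43 CPM in WT and 6.89 to 11.96 CPM in Akita + NACET, and the groups overlapped (0.51 ± 0.23, SE). Chac1 and Asns, the asparagine synthetase, were the 2 of 29 genes of endoplasmic reticulum stress at an unadjusted p under 0.05, a share of 6.90% against 4.63% of all tested genes. Asns had 144, 91.2 and 101 CPM in WT and 64.4 to 85.9 CPM in Akita + NACET (-0.55 ± 0.24, SE). Of 12 genes of REDD1, TXNIP and sestrins, 8 were higher and 4 lower, with a median of 0.09. At an unadjusted p under 0.05, 1 was higher and 1 lower (2.21% and 2.43% of all tested genes). Ddit4l, a relative of the mTOR inhibitor REDD1, went against the list median. It had 6.18, 9.35 and 6.68 CPM in WT and 2.41, 4.71, 4.08, 4.10 and 5.16 CPM in Akita + NACET, without overlap (-0.85 ± 0.24, SE).

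Heat shock genes were lower for 16 of 20 members with a median of -0.18 that was -0.093 without WT replicate 3. At an unadjusted p under 0.05, 5 were lower (2.43% of all tested genes), and 4 were lower without overlap (2.17%). Hsp90ab1, the constitutive HSP90 chaperone, had 417, 351 and 355 CPM in WT and 317, 295, 317, 287 and 268 CPM in Akita + NACET (-0.34 ± 0.12, SE). Chordc1, a co-chaperone of HSP90, had 72.5 to 76.4 CPM in WT and 52.6 to 67.9 CPM in Akita + NACET (-0.24 ± 0.09, SE). Cholesterol synthesis and uptake genes were lower for 20 of 22 members with a median of -0.19, and 4 were lower at an unadjusted p under 0.05 (2.43% of all tested genes). Sc4mol, the sterol methyl oxidase now named Msmo1, had 157, 141 and 150 CPM in WT and 105, 136, 137, 126 and 108 CPM in Akita + NACET (-0.29 ± 0.12, SE). Stard4, a sterol carrier, differed by -0.32 ± 0.15 (SE).

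Circadian clock genes went the other way, with 19 of 21 higher, a median of 0.17 and 4 higher at an unadjusted p under 0.05 (2.21% of all tested genes). Cry1, a repressor of the clock, had 78.4, 96.5 and 105 CPM in WT and 141, 120, 108, 113 and 106 CPM in Akita + NACET (0.34 ± 0.11, SE), and Nr1d2, a nuclear receptor of the clock, 188 to 212 CPM and 231 to 251 CPM (0.24 ± 0.09, SE). Neither overlapped between the groups. The hour at which the tissue was taken was not given in the sources used here.

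Respiratory chain genes of the nucleus had small and uniform differences. All 37 genes of complex I were lower, with a median of -0.13, as were 38 of 39 genes of complexes II to V, with a median of -0.14. Of each list 2 had an unadjusted p under 0.05, near the 4.63% of all tested genes. All 37 and 38 of 39 genes were bounded within 2-fold (84.1% of all tested genes). Ribosomal protein genes were lower for 60 of 77, with a median of -0.12. The library Akita + NACET replicate 5 was the lowest in all 3 lists and also had the largest share of reads outside exons of the 8, 19.8%. Without it the medians were -0.06 and -0.08 for the respiratory lists and -0.033 for the ribosomal list, which was -0.051 without WT replicate 3. Of 13 listed genes of the mitochondrial genome only 8 passed the count filter and were tested. Of these 8, 6 were lower and 2 higher, with a median of -0.05. Among them 1 had an unadjusted p under 0.05 (12.5%, against 4.63% of all tested genes). That gene, mt-Co1, a catalytic subunit of complex IV, had 837, 942 and 912 CPM in WT and 1424, 1040, 1216, 1239 and 1392 CPM in Akita + NACET, without overlap (0.49 ± 0.13, SE). DESeq2 on the 8 libraries called mt-Co1 (adjusted p = 0.0138).

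Of 27 tested genes of glycolysis and glucose uptake, 1 had an unadjusted p under 0.05 (3.70%, against 4.63% of all tested genes). Hk2, the hexokinase of photoreceptors, had 152, 165 and 195 CPM in WT and 409, 241, 227, 210 and 213 CPM in Akita + NACET, without overlap (0.61 ± 0.28, SE). The value without replicate 1, the highest library, was 0.39. Col4a3, a chain of basement membrane collagen IV that DESeq2 called on the 8 libraries, had 181, 151 and 175 CPM in WT and 314, 247, 238, 243 and 259 CPM in Akita + NACET (0.62 ± 0.16, SE). Over all 41 lists, with 808 tested genes, edgeR called Csrp3 and DESeq2 on the 4 groups called 5 genes: Csrp3, Akr1b8, Aqp4, Igf2 and Hbb-b2. Over all genes, edgeR called 1 of 16183 (0.00618%) and DESeq2 11 of 18981 (0.0580%). The lists were chosen with earlier results of these data known, so the number of calls within them is a description.

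Several genes with large estimates rested on few libraries. Gm10925, a predicted gene at chr1:24620814-24621627, had 0 counts in the 3 WT libraries and 16.7, 0.530, 0.255, 0.124 and 3.53 CPM in Akita + NACET. Against a floor of 3 counts over the pooled WT libraries, its mean was at least 58.1-fold higher, with replicate 1 holding most of it. Krt5, a keratin of surface epithelium, had 1.51 to 2.08 CPM in WT and 2.14, 5.60, 5.11, 3.67 and 23.2 CPM in Akita + NACET. Its log2 fold change of 2.21 ± 0.86 (SE) was 1.27 without replicate 5. The predicted genes Gm10718, Gm10800 and Gm10801 were lower, by -3.45 ± 1.09, -2.70 ± 1.002 and -2.98 ± 0.97 (SE). DESeq2 on the 8 libraries called all 3 (adjusted p = 0.000155, 0.0294 and 1.01e-08), and edgeR on all groups called none of them. Gm10800 had 42.1, 122 and 24.1 CPM in WT and 4.96 to 16.001 CPM in Akita + NACET, while 1 Akita library on water had 224 CPM. Without WT replicate 2 the changes of these 3 genes were -2.41, -1.78 and -2.18.

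The remaining genes with the largest decreases were picked among genes lower in every Akita + NACET library than in any WT library. The lack of overlap follows from that choice, and 351 of 16183 tested genes showed it in this direction (2.17%). The transcript 1700027L20Rik had 13.4, 16.4 and 15.1 CPM in WT and 2.41, 6.19, 4.40, 6.21 and 10.8 CPM in Akita + NACET (-1.31 ± 0.34, SE). Rdh1, a retinol dehydrogenase whose locus overlaps Rdh9 on the same strand, had 1.51 to 2.88 CPM in WT and 0.354 to 1.12 CPM in Akita + NACET (-1.35 ± 0.36, SE). RP23-76I20.1, a transcript at chr16:50783522-50784203, had 1.68 to 2.65 CPM and 0.588 to 1.53 CPM (-1.09 ± 0.31, SE). None of these 3 was called by edgeR in the fit of all groups, and DESeq2 called 1700027L20Rik on the 8 libraries alone.

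The genes with the largest changes in Akita mice on water are given with their values after treatment. Both comparisons use the same 3 WT libraries, so they are set side by side and not correlated, and the choice by Akita against WT also shapes where the treated libraries fall against WT. Cldn5, the claudin that seals endothelial tight junctions, had 2.30, 2.56 and 0.963 CPM in WT, 0.126 to 0.580 CPM in Akita, and 2.41, 2.77, 1.53, 2.30 and 0.784 CPM in Akita + NACET. The log2 fold change against WT was -2.11 ± 0.59 (SE) in Akita and 0.03 ± 0.49 (SE) in Akita + NACET. Meg3, an imprinted noncoding RNA, had 293, 230 and 206 CPM in WT, 65.6 to 84.0 CPM in Akita, and 203, 241, 143, 187 and 256 CPM in Akita + NACET. Its change was -1.73 ± 0.30 (SE) in Akita and -0.24 ± 0.28 (SE) in Akita + NACET, where the libraries overlapped with WT.

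Mirg, a noncoding RNA of the same imprinted locus that hosts microRNAs, changed by -1.93 ± 0.33 (SE) in Akita and had -0.34 ± 0.29 (SE) in Akita + NACET. Rian, another transcript of this locus, had 32.1, 24.6 and 22.2 CPM in WT and 21.4, 17.4, 17.04, 15.9 and 16.7 CPM in Akita + NACET, without overlap (-0.57 ± 0.17, SE, adjusted p = 0.920 in edgeR), against -0.89 in Akita. The transcript 1110032F04Rik had -1.76 ± 0.40 (SE) in Akita and -0.58 ± 0.35 (SE) in Akita + NACET.

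The 4 genes with the largest increase in Akita mice are given in the same way. Dynlrb2, a dynein light chain of cilia, had 0.0799 to 0.503 CPM in WT, 0.912 to 2.17 CPM in Akita and 0.718 to 1.28 CPM in Akita + NACET, with changes of 2.16 ± 0.44 (SE) and 1.45 ± 0.44 (SE). Fstl3, which binds and blocks activin, had 0.843 to 1.04 CPM in WT, 2.26 to 3.48 CPM in Akita and 3.24, 1.41, 1.34, 1.62 and 1.11 CPM in Akita + NACET. Its change was 1.64 ± 0.36 (SE) in Akita and 0.89 ± 0.35 (SE) in Akita + NACET, or 0.55 without replicate 1. Scn4a changed by 1.72 ± 0.34 (SE) in Akita, against 1.26 after treatment, and Akr1b8 by 1.65 ± 0.36 (SE), against 2.01.

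**Figure D5:**
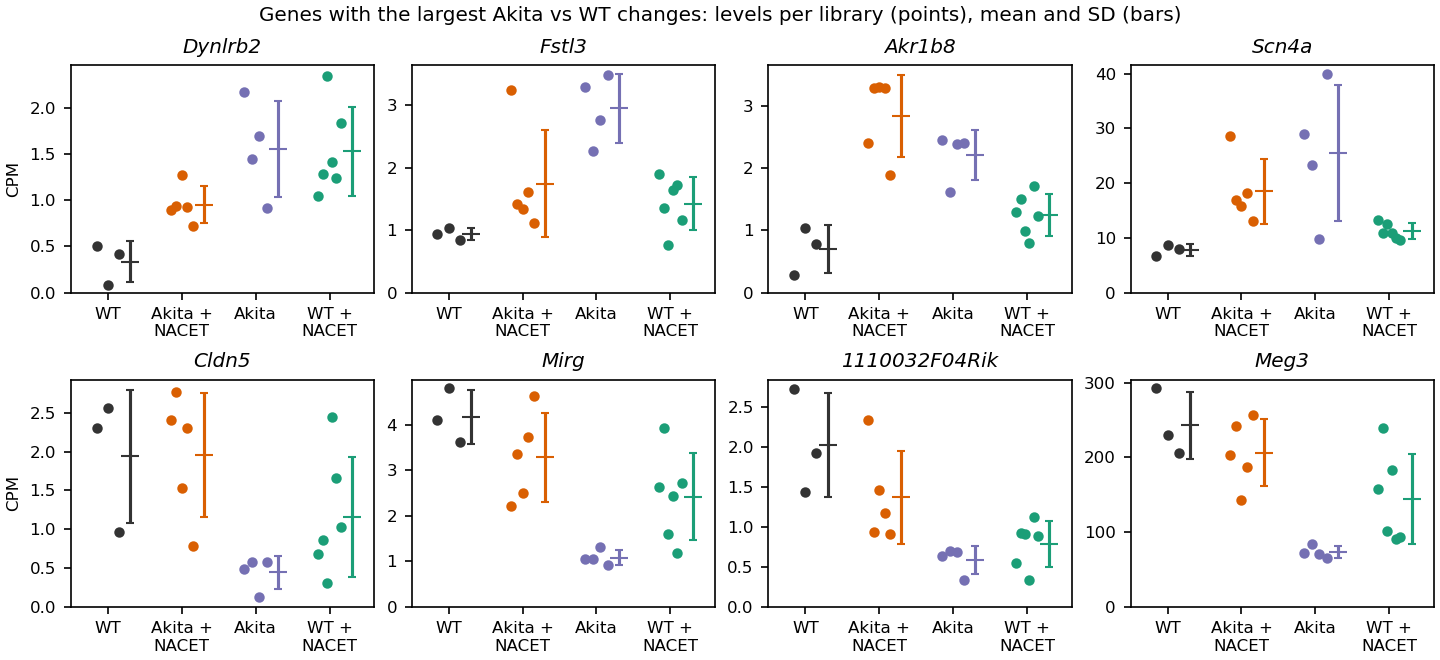
Points are libraries and bars are group means with SD, in CPM from 0, for the 4 genes with the largest increase (top) and the 4 with the largest decrease (bottom) in Akita against WT. Meg3, for example, ranges from 65.6 to 84.0 CPM in Akita, 143 to 256 CPM in Akita + NACET and 206 to 293 CPM in WT. The genes were chosen with the same WT libraries, so their place against WT is a description.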

How the data were processed

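Poly(A) RNA of retina was sequenced in 18 libraries. The deposited values are raw read counts per gene: per the study's methods and the submitters' processing notes, the authors aligned single-end TruSeq reads to mm9 with TopHat2 2.1.0 and counted exon overlaps with HTSeq 0.11.2 without regard to strand, leaving out reads that aligned to several places (9.04% on average) and ambiguous ones (1.07%). This lowers counts of near-identical paralogs and mixes reads of genes that overlap on opposite strands. The 5 summary entries and an entry without a name (0.00544% of gene counts) were left out, and 185 ribosomal RNA genes (0.977%) were removed as the authors did, leaving 34821 gene names. Groups came from the sample labels. No pair of libraries within WT or Akita + NACET agreed within sampling noise (chi-square per degree of freedom 4.82 to 29.0), and each counted once. This check cannot tell separate animals from separately prepared libraries of the same animal.

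All 4 groups entered 1 quasi-likelihood fit in edgeR 4.0.16 (R 4.3.3), scaled by TMM and with dispersions estimated robustly. Genes were kept by edgeR's own rule for expression, with a count of 10 and a total of 15 as minimums, and 16183 passed. Adjusted p-values follow Benjamini and Hochberg over all of them, and a gene was called at 0.05 or below, whatever its fold. SEs derive from the F statistic, intervals (95%) from the t distribution, and CPM are TMM-scaled. The authors used DESeq2, an alternative here (1.42.0). The test was tried on simulated counts. Single values per library were compared by exact permutation. Coordinates are of mm9 (NCBIM37, GENCODE M1), promoters of RefSeq GRCm38.p6.

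The comparison, the gene lists and the alternatives were chosen with earlier results of these data known. Named genes are those called by edgeR or by DESeq2 on 4 groups. Further ones are the 8 with the largest change in each direction (mean of at least 1 CPM, unadjusted p under 0.05, no overlap), and the 4 with the largest change in each direction in Akita against WT. Genes the study measured were added, and in each list the first 2 members and the 2 with the smallest p, of which some are given. Hbb-b1, Tfrc, Col4a3 and Cartpt were chosen after their values were seen. Alternatives were DESeq2 size factors, DESeq2 on 4 or 2 groups, edgeR on 2 groups or without WT + NACET, no filter, a mean count of at least 50, a replicate block, ribosomal RNA kept, a covariate for reads outside exons, dispersion that was not robust, and each library left out in turn.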

Additional observations from a re-analysis of the deposited data

Results flagged for a closer look

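In groups of 4 to 6 libraries, a library was singled out where its gap to the nearest other library exceeded Dixon's 95% critical value for the group's range. This was the case in 17 of 126 groups examined. Many of the genes were chosen from these same data and the groups share libraries, so no chance rate is set against this count. Of the 17, 10 were values of Akita + NACET replicate 1. In that library Igf2 was at 20.9 CPM (14.4 to 15.97 CPM in the other 4 Akita + NACET libraries), Gm10925 at 16.7 CPM (0.124 to 3.53), Fstl3 at 3.24 CPM (1.11 to 1.62), Rian at 21.4 CPM (15.9 to 17.4), Nfe2l2 at 35.7 CPM (25.7 to 27.4), Hk2 at 409 CPM (210 to 241) and Col4a3 at 314 CPM (238 to 259). Tfrc, the transferrin receptor that takes up iron, was at 207 CPM (109 to 120), while Chordc1 was low at 52.6 CPM (65.2 to 67.9). The median of the endoplasmic reticulum stress list was -0.26 there, in log2 CPM against the WT mean (-0.04 to 0.05).

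Akita + NACET replicate 5 had 23.2 CPM of Krt5 (2.14 to 5.60 in the others) and a median of -0.47 over superoxide dismutases, catalase and metallothioneins (-0.06 to 0.09). Akita + NACET replicate 3 had a lens gene sum of 1557 CPM (50.2 to 451) and a median of -0.54 over the Dlk1-Meg3-Mirg locus (-0.32 to -0.25). Akita + NACET replicate 4 was low in Agxt2l1, at 18.4 CPM (24.0 to 24.7), and replicate 2 was high in Kcnj8, at 1.24 CPM (0.511 to 0.684). Among Akita mice on water, replicate 2 was low in Akr1b8, at 1.62 CPM (2.39 to 2.45).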

How the results depend on the processing

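The count of 1 called gene depended on the fit. DESeq2 called 11 genes with all groups and 28 with the 8 libraries, edgeR called 3 with the 8 libraries and 2 without the filter (Csrp3 and Akr1b8). Leaving out each library gave 0 to 2 calls: 0 without WT replicate 2 or WT replicate 3, and 2 without Akita + NACET replicate 1 (Csrp3 and Tfrc, log2 fold change -0.52) or replicate 5 (Csrp3 and Akr1b8). Csrp3 ranged from -1.17 to -0.97 over the libraries left out. Deviations of same-numbered WT and Akita + NACET libraries correlated across genes at 0.236, 0.104 and 0.00631, against -0.224 to 0.103 for unlike numbers. These few values cannot show whether the numbers pair the samples, and the main fit used no replicate block. With the number as a replicate block edgeR called 0 genes, Csrp3 stood at -1.05 (adjusted p = 0.0738; 3.0e-07 to 0.169 over all alternatives) and Cldn5 at -0.11. At an unadjusted p under 0.05 the alternatives gave 540 to 1031 genes. The share of genes bounded within 2-fold was 49.2% and 54.0% in DESeq2 with all groups and with 8 libraries, and 49.7% without the filter, fits that include more genes of low counts by construction.

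Of 1273 log2 fold changes over 68 genes and the alternatives, 1222 kept their direction and their side of the threshold, 33 passed it only in the alternative, 3 lost the call, all of Csrp3, and 15 changed sign. Genes that changed sign were near 0 or rested on 1 library, with these ranges over the libraries left out: Cldn5 -0.29 to 0.28, Nqo1 -0.042 to 0.27, Gclm -0.056 to 0.031, Gfap -0.075 to 0.55, Rbpms -0.017 to 0.29, Dct -2.70 to 0.39, Csrp1 -0.16 to 0.11 and Akr1b3 -0.059 to 0.28. The difference in the share of reads outside exons ranged from -0.77 to 0.61 percentage points. Of 779 list medians 766 moved by less than their spread between libraries. Leaving out 1 library nevertheless changed the sign of 46 of 328 medians, in 23 of the 41 lists. Over the libraries left out the others ranged from -0.075 to 0.32 (pericytes and smooth muscle), -0.13 to 0.93 (pigment epithelium), 1.88 to 4.33 (lens genes), -0.18 to 0.081 (muscle), -0.14 to 0.039 (NRF2 targets), -0.15 to 0.053 (cysteine, taurine and sulfide metabolism), -0.18 to -0.093 (heat shock) and -0.18 to 0.11 (VEGF and angiopoietin). Muscle was at -0.24 in both DESeq2 fits and -0.23 without the filter, where more of its genes entered. The other causes were not tested. Depth limited low genes most: 15.4% of those with a mean under 1 CPM were bounded within 2-fold.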
